A study of Mus musculus with 12 samples.

Results

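The comparison described here set 3 ovary samples labelled Tg Foxo3-/- against 3 labelled NoTg Foxo3-/-, that is, Foxo3-null ovaries with and without a transgene. Its members were chosen by these labels, and they are 6 of the 12 arrays of the series. The other 6 arrays, 3 Tg Foxo3+/- and 3 NoTg Foxo3+/-, entered the fit and served for the comparison between genotypes. All samples were whole ovaries of FVB/N female mice at 14 days after birth (14 dpn), and all carried at least 1 disrupted Foxo3 allele. RNA was read on Illumina bead arrays. The series title describes the transgene as a constitutively active Foxo3 in oocytes. The labels name no promoter, founder line or number of animals per sample.

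FOXO3 is a forkhead transcription factor. In the resting oocyte of a primordial follicle it lies in the nucleus and holds the follicle dormant. KIT ligand signals through PI3K and AKT, AKT phosphorylates FOXO3, and 14-3-3 proteins bind the phosphorylated protein as it leaves the nucleus, after which the oocyte grows. A constitutively active form lacks the control by phosphorylation and stays in the nucleus.

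The design asks what the transgene does to ovarian RNA when both endogenous copies of Foxo3 are disrupted. Of 22511 probes tested, limma called 43 (0.191%), where called means an adjusted p under 0.05 (Benjamini-Hochberg over all tested probes, two-sided). Of these, 41 were lower in Tg Foxo3-/- ovaries (0.182%) and 2 were higher (0.00888%). The probes that fell include those of the vesicular monoamine transporter Slc18a2, which has 1 tested probe, and of the RNA helicase Ddx3x, whose 2 tested probes were both below 0. One probe each of the vitamin C transporter Slc23a2 and the cytokinesis kinesin Kif23 also fell, while the other probes of these genes were at -0.17 for Slc23a2 and at 0.04 and -0.04 for Kif23, none of them called. The probes that rose are of Adh1, an alcohol dehydrogenase that also oxidises retinol, and Rnf123, an E3 ubiquitin ligase subunit. A gene said here to have risen or fallen had 1 called probe, and its other tested probes are summarised further on. The falls were 1.52- to 2.51-fold, with a median of 1.79-fold. In all 43 the Tg and NoTg arrays did not overlap, which held for 17.6% of all tested probes. In whole ovaries, fewer cells of a type and less RNA per cell cannot be told apart.

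The number of calls rested on single arrays and on the scaling. Leaving out Tg Foxo3-/- replicate 1, 2 or 3 gave 6, 0 and 0 calls, leaving out NoTg Foxo3-/- replicate 1, 2 or 3 gave 0, 127 and 17, Tg Foxo3+/- replicate 1, 2 or 3 gave 93, 8 and 27, and NoTg Foxo3+/- replicate 1, 2 or 3 gave 59, 7 and 193. None was called with median scaling of the arrays or with the array background as a covariate. The background did not overlap between the 6 Tg and the 6 NoTg arrays, so that covariate and the transgene are poorly told apart, and the differences fitted with it were -1.65 for Slc18a2, -1.08 for Ddx3x, -0.52 for Eif3c, -0.23 for Pom121 and 1.12 for Adh1. For the 33 called probes with 1 gene symbol, the sign of the difference was the same in each alternative in which the probe was tested. Their Tg and NoTg Foxo3-/- arrays did not overlap in the main fit. Leaving out an array could therefore hardly change a sign, and the kept signs do not make the calls firmer.

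**Figure D1:**
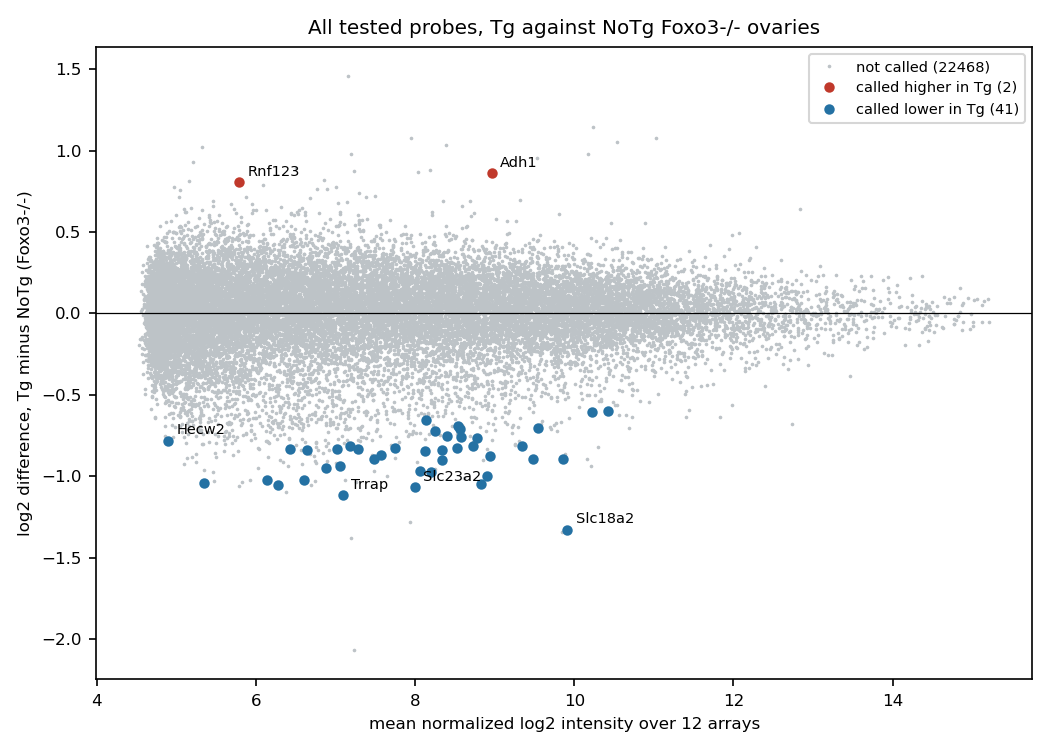
Each point is 1 of the 22511 tested probes, with the mean normalized log2 intensity over 12 arrays on the x axis and the log2 difference, Tg minus NoTg Foxo3-/-, on the y axis. The 41 probes called lower in Tg lie between -1.33 and -0.60, mostly at middle to high intensities, and the 2 called higher are Adh1 and Rnf123.

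The arrays of Tg and NoTg ovaries differed in background, the median raw intensity of probes with a detection p-value over 0.5. It was 74.2, 68.5 and 68.5 on the Tg Foxo3-/- arrays and 81.2, 79.9 and 81.1 on the NoTg Foxo3-/- arrays. The ranges did not overlap, and the difference of -10.3 gave an exact two-sided permutation p of 0.1, the smallest that 3 arrays against 3 allow. The same direction held over all arrays by transgene state, with means of 68.2 ± 3.20 in Tg and 79.4 ± 1.86 in NoTg (SD, n = 6 each, exact permutation p = 0.00216). The number of detected probes was close in both null groups, at 20547 to 20605 on Tg arrays and 20352 to 21038 on NoTg arrays. The calls lay mostly at middle to high intensity. In 5 equal bins of mean intensity from dim to bright, 1, 3, 12, 21 and 4 probes were called lower, and the median difference of all probes in a bin lay between 0.00 and 0.03 on the log2 scale. Quantile normalization gives all arrays the same distribution and so holds these medians near 0. They therefore do not show whether the background affected the differences.

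Foxo3 itself was read by 3 probes. The tested one (ILMN_2501865) had log2 intensities of 8.29, 8.37 and 8.20 in Tg Foxo3-/- ovaries and 8.45, 8.18 and 8.65 in NoTg Foxo3-/- ovaries. The groups overlapped, and the log2 difference was -0.14 ± 0.17 (SE, n = 3 each, limma adjusted p = 0.851). In Foxo3+/- ovaries it had 7.89, 7.87 and 8.13 with the transgene and 7.81, 7.92 and 8.44 without it, so the probe was not lower in the null samples. NoTg Foxo3-/- against NoTg Foxo3+/- gave 0.37 (adjusted p = 0.317). The other probes were detected on 0 and 1 of the 12 arrays. Which part of the transcript each probe reads, and whether it reads the transgene, is not stated in the sources used, so these values neither bear out nor contradict the labels.

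Among the genes for transport across membranes, Slc18a2 had the largest fall of the called probes. This protein loads monoamines into vesicles. Its log2 intensity was 9.44, 9.22 and 9.15 in Tg Foxo3-/- ovaries and 10.62, 10.61 and 10.57 in NoTg Foxo3-/- ovaries. Each Tg array lay more than 1 log2 unit below each NoTg array, and the difference was -1.33 ± 0.19 (SE, n = 3 each), a 2.51-fold fall (limma adjusted p = 0.0148). Slc23a2, which carries ascorbate into cells, had 7.51, 7.61 and 7.40 in Tg Foxo3-/- ovaries and 8.71, 8.48 and 8.53 in NoTg Foxo3-/- ovaries. Its difference of -1.07 ± 0.13 (SE, n = 3 each) had the smallest adjusted p of the comparison (limma, 0.0114).

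Further called probes, placed together after their values were seen, belong to genes of membranes and vesicles. With the log2 difference of most, they were Vapa, a tether at contact sites of the endoplasmic reticulum (limma adjusted p = 0.0329), Vps26b, a retromer subunit (-0.83), Myo5b, a myosin of recycling endosomes (-0.84), Dmxl2, a rabconnectin that regulates the vacuolar proton pump, Anxa4, a calcium-dependent membrane binder (-0.81), and Lrrc59, a protein of the endoplasmic reticulum membrane (-1.02). Dmxl2 was dim and was detected on 1 of 3 Tg and on all 3 NoTg Foxo3-/- arrays, so no size is given for it. The brightest probes of Myo5b and Anxa4 were at 0.04 and 0.02. In the lists that hold Vapa and Dmxl2, no other member was called, beside 0.191% of all tested probes. Of 17 genes tested for contact sites and VAP partners, Vapa alone was called and the list median was 0.09. Of 19 for the proton pump and rabconnectins, Dmxl2 alone was called and the median was -0.01, beside a median of 0.02 over all 12173 genes, each by its brightest probe.

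Among genes that handle RNA, single members had a called probe. Ddx3x, a DEAD-box helicase of translation, had log2 intensities of 8.48, 8.35 and 8.18 in Tg Foxo3-/- ovaries and 9.31, 9.35 and 9.47 in NoTg Foxo3-/- ovaries. The groups did not overlap, and the difference was -1.04 ± 0.14 (SE, n = 3 each, limma adjusted p = 0.0146). Of 24 DEAD-box helicase genes tested it was the called one, beside 0.191% of all tested probes. Of the 24, 11 lay above 0 and 13 below, beside 6656 above and 5517 below of all 12173 genes. Eif3c, a subunit of translation initiation factor eIF3, fell by 0.97, and Mtrex, the helicase of the nuclear exosome, fell by 0.75 on the log2 scale. Cytosolic ribosomal protein genes had 0 of 19 called, beside 0.191% of all tested probes, and a median difference of 0.02.

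Single genes of nuclear import and chromatin had a called probe. Kpnb1, importin beta, had 8.21, 8.42 and 8.05 in Tg Foxo3-/- ovaries and 9.09, 9.30 and 8.74 in NoTg Foxo3-/- ovaries, a difference of -0.81 ± 0.15 (SE, n = 3 each, limma adjusted p = 0.0398). Pom121, a membrane nucleoporin, fell by 0.83. It was the called member of 25 nuclear pore genes, beside 0.191% of all tested probes, and their median was 0.00. Trrap, the scaffold of several histone acetyltransferase complexes, had 6.76, 6.36 and 6.29 in Tg Foxo3-/- ovaries and 7.83, 7.57 and 7.36 in NoTg Foxo3-/- ovaries. Its difference was -1.12 ± 0.17 (SE, n = 3 each, limma adjusted p = 0.0148). Of 25 genes of these complexes 16 lay above 0, beside 6656 of all 12173 genes. Pbrm1, a subunit of the PBAF chromatin remodeller, fell by 0.90 and Zbtb18, a zinc finger repressor, by 0.83.

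Among signalling genes, Ywhae encodes one of the 14-3-3 proteins, which bind phosphorylated FOXO. It had 5.80, 5.83 and 5.53 in Tg Foxo3-/- ovaries and 7.02, 6.47 and 6.82 in NoTg Foxo3-/- ovaries. The groups did not overlap, and the difference was -1.05 ± 0.20 (SE, n = 3 each, limma adjusted p = 0.0451). Ywhae was the called gene of 12 tested for 14-3-3 proteins and FOXO export, beside 0.191% of all tested probes. Of the 12, 4 lay above 0 and 8 below with a median of -0.09, beside 6656 above and 5517 below of all 12173 genes. Ywhaq and Ywhaz, relatives of Ywhae, were at -0.24 and -0.22 and did not pass (adjusted p = 0.389 and 0.461). Rras2, a small GTPase of the RAS family, fell by 0.84, Ppp6r3, a regulatory subunit of protein phosphatase 6, by 1.02, and Tanc1, a scaffold protein, by 0.81. Of 21 genes of KIT, PI3K and AKT signalling, 0 were called, beside 0.191% of all tested probes, and the median was 0.00.

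Genes for protein turnover that fell were Vhl, the substrate receptor of the ligase that degrades hypoxia-inducible factor (-0.95), the HECT ligases Trip12 (-0.94) and Hecw2, and the RING-type protein Trim59 (-0.84). The other Trip12 probes, all brighter than the called one, were at -0.47, -0.34 and 0.00, none of them called. The called Hecw2 probe was detected on none of the Tg Foxo3-/- arrays and on all 3 NoTg Foxo3-/- arrays. The fall of this probe is therefore a bound, at least 1.39-fold lower in Tg, set against the dimmest detected signal of each array (limma adjusted p = 0.0348). The bound does not hold for the other tested Hecw2 probes, which were at -0.55, -0.18, -0.16 and, on the brightest, -0.13, none of them called. The mitochondrial genes Isca1 (iron-sulphur cluster assembly), Pmpcb (protease for imported proteins) and Acadsb (an acyl-CoA dehydrogenase) fell by 0.70, 0.87 and 0.69. Pmpcb was the called gene of 25 for mitochondrial import and processing, beside 0.191% of all tested probes, and their median was -0.01. One of 3 tested probes of Kif23, which builds the midbody at cell division, fell by 0.89, while the brightest was at 0.04 and the other at -0.04. The cell cycle list had 0 of 24 genes called, beside 0.191% of all tested probes. Abhd17c, of a family of depalmitoylating enzymes, fell by 0.65, and Fam114a1 and R3hdm2 fell by 0.77 and 0.90. A further 10 probes that fell are unnamed here and had differences of -0.98 to -0.60.

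**Figure D2:**
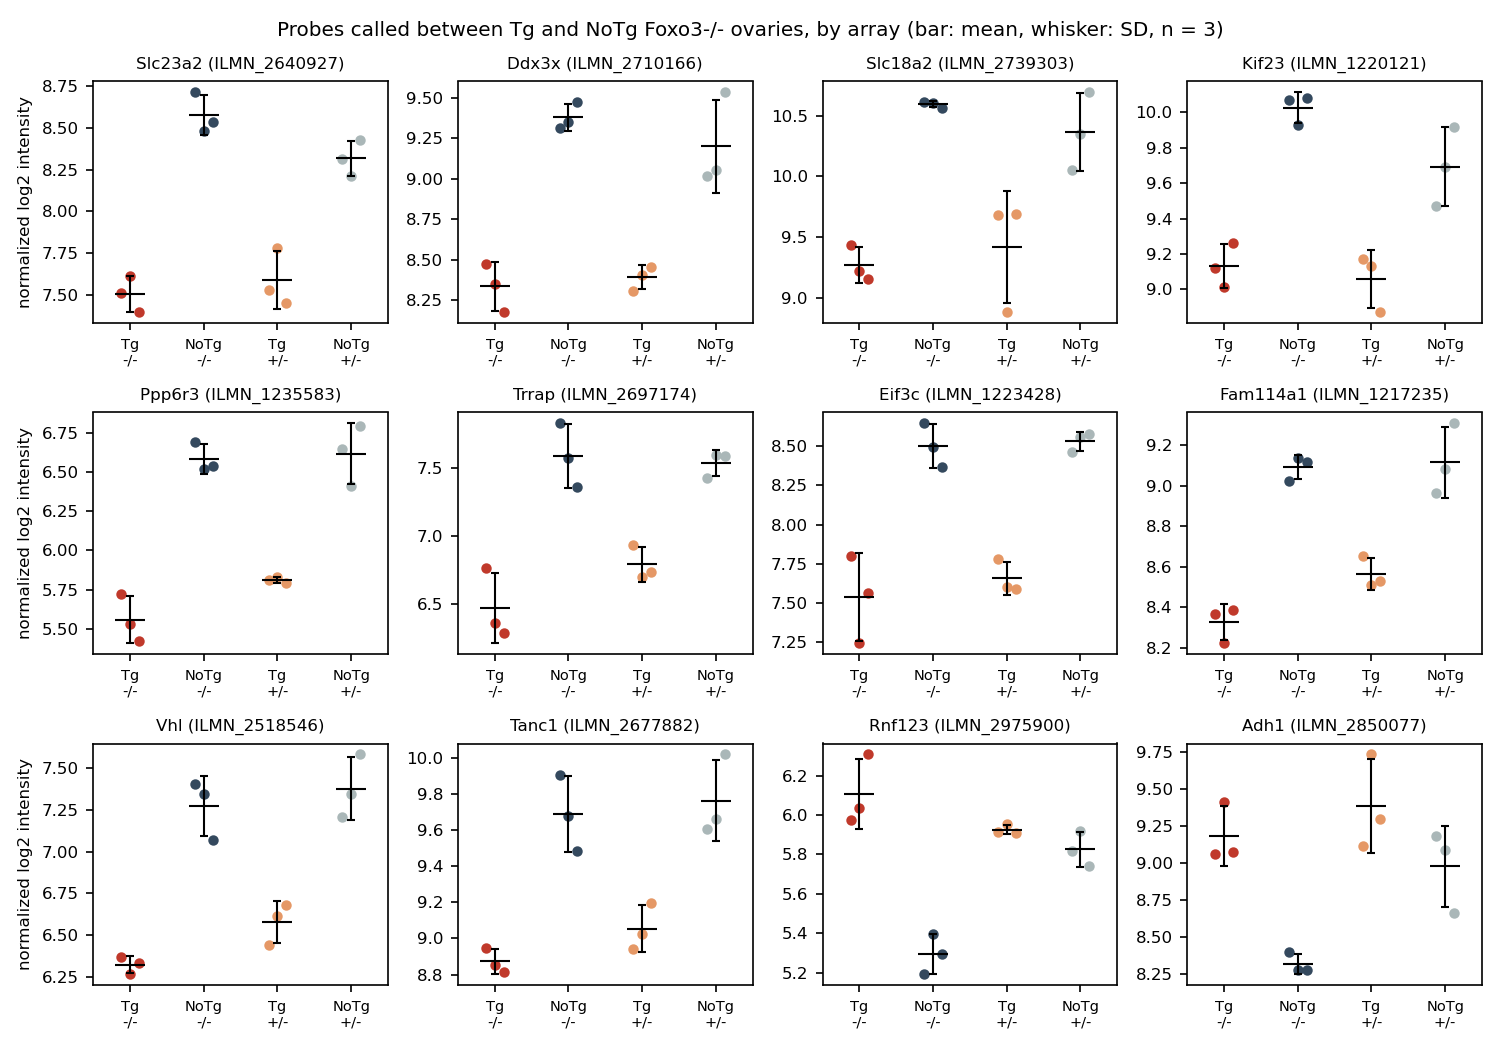
Normalized log2 intensity by array for the 10 probes with a gene symbol and the smallest p among those called, and for Rnf123 and Adh1, in Tg and NoTg Foxo3-/- and Tg and NoTg Foxo3+/- ovaries (points: arrays; bar: mean; whisker: SD, n = 3). In each panel the Tg and NoTg Foxo3-/- points do not overlap, and for Rnf123 and Adh1 the NoTg Foxo3-/- points are the lowest of the 4 groups.

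The rises were Adh1 and Rnf123. Adh1 (ILMN_2850077) had log2 intensities of 9.06, 9.41 and 9.08 in Tg Foxo3-/- ovaries and 8.40, 8.28 and 8.28 in NoTg Foxo3-/- ovaries. The difference was 0.86 ± 0.17 (SE, n = 3 each), a 1.82-fold rise (limma adjusted p = 0.0457). This probe was called in 8 of 25 alternatives. In the authors' normalized values the difference was 0.63 and did not pass (limma adjusted p = 0.0523). The raw intensities did not overlap either, at 629, 704 and 490 in Tg Foxo3-/- ovaries and 443, 419 and 407 in NoTg Foxo3-/- ovaries. Its second probe (ILMN_1258501) had 8.42, 8.76 and 8.32 in Tg Foxo3-/- ovaries and 7.72, 7.95 and 7.76 in NoTg Foxo3-/- ovaries, a difference of 0.69 ± 0.17 that did not pass alone (SE, n = 3 each, limma adjusted p = 0.0962). Both probes read brighter on each Tg Foxo3-/- array than on each NoTg Foxo3-/- array.

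Rnf123 is the catalytic subunit of the KPC complex, which marks the cell cycle inhibitor p27 for degradation. Its called probe (ILMN_2975900) had 5.97, 6.03 and 6.31 in Tg Foxo3-/- ovaries and 5.19, 5.40 and 5.30 in NoTg Foxo3-/- ovaries, a difference of 0.81 ± 0.15 (SE, n = 3 each, limma adjusted p = 0.0348). Before background correction the groups overlapped, with raw intensities of 128, 118 and 124 in Tg Foxo3-/- ovaries and 109, 118 and 112 in NoTg Foxo3-/- ovaries. The difference was 0.37 (adjusted p = 0.0494) with no background correction and 0.25 (adjusted p = 0.075) in the authors' normalized values. Its second probe (ILMN_1226216) differed by 0.23 ± 0.17 (SE, n = 3 each, limma adjusted p = 0.701).

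Aldh1a2, the enzyme that makes retinoic acid from retinal and so acts after Adh1 in the pathway, was read by 2 tested probes. ILMN_2630753 had 6.23, 6.37 and 6.22 in Tg Foxo3-/- ovaries and 5.48, 5.24 and 5.74 in NoTg Foxo3-/- ovaries, a difference of 0.79 ± 0.16 (SE, n = 3 each, limma adjusted p = 0.0512). ILMN_2630749 had 7.40, 7.58 and 7.26 in Tg Foxo3-/- ovaries and 6.82, 6.91 and 6.80 in NoTg Foxo3-/- ovaries, a difference of 0.57 ± 0.14 (SE, n = 3 each, limma adjusted p = 0.0878). Neither probe passed alone, and neither overlapped between the groups after normalization. Raw intensities of the first probe did overlap, at 120 to 140 in Tg and 113 to 127 in NoTg Foxo3-/- ovaries.

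When each gene was tested by the mean of its probes, an alternative added after the data were seen, 35 of 12173 genes were called (0.288%), 31 lower and 4 higher in Tg Foxo3-/- ovaries. Of the 4736 genes with 2 or more tested probes, 5 were called (0.106%). They were Aldh1a2 (0.68 ± 0.12, SE, limma adjusted p = 0.0384), Adh1 (0.78 ± 0.15, adjusted p = 0.049), Ddx3x (-0.91 ± 0.16, adjusted p = 0.0384), Slc23a2 (-0.62), and Noct (-0.84 ± 0.16, adjusted p = 0.0416), the circadian deadenylase-family protein nocturnin. Among 15 alcohol and retinal dehydrogenase genes and their carriers, chosen with earlier results known, 8 lay above 0 and 7 below with a median of 0.02. The retinol carrier Rbp4 and the retinoic acid binder Crabp1 were at -0.56 and -0.66 (adjusted p = 0.2 and 0.162).

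Aldh1a2 also stands in the list of surface epithelium and bursa genes. The 4 defining markers of that epithelium (Krt7, Krt18, Krt19 and Upk3b) had differences of 0.23 to 0.35. Of these 4, 0 were called, beside 0.191% of all tested probes. The mean level of the 17 tested genes of that list was 6.86 to 7.15 in Tg Foxo3-/- ovaries and 6.89 to 6.90 in NoTg Foxo3-/- ovaries. Its part in the Aldh1a2 values was not tested. Another member, the stem cell receptor gene Lgr5, had 6.89, 7.04 and 6.84 in Tg Foxo3-/- ovaries and 6.16, 6.20 and 5.96 in NoTg Foxo3-/- ovaries (0.82 ± 0.19, SE, n = 3 each, limma adjusted p = 0.0832).

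The promoters of the genes that rose, of Aldh1a2 and of Slc18a2, the largest fall, are shown because FOXO proteins bind DNA at sites such as GTAAACA. The 250 bases before each start are given 5′ to 3′ on the gene's strand, from RefSeq on GRCm38.p6, with matches to GTAAACA or CAAAACA on either strand in capitals.
Rnf123, chr9:108079302-108079551, minus strand: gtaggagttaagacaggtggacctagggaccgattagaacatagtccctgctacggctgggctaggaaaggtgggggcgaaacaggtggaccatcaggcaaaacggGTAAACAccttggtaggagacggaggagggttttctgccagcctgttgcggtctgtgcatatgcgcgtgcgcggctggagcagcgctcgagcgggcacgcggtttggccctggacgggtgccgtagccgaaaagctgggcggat
Adh1, chr3:138277335-138277584, plus strand: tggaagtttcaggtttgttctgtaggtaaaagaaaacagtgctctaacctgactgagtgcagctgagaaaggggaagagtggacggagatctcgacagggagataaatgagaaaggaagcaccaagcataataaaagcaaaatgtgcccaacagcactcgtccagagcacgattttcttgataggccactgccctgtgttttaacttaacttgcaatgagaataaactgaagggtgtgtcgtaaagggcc
Aldh1a2, chr9:71215539-71215788, plus strand: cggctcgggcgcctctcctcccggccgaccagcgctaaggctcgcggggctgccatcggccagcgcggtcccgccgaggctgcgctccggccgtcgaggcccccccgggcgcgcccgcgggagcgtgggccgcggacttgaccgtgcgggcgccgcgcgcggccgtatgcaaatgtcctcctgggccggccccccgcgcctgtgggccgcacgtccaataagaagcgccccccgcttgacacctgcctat
Slc18a2, chr19:59260628-59260877, plus strand: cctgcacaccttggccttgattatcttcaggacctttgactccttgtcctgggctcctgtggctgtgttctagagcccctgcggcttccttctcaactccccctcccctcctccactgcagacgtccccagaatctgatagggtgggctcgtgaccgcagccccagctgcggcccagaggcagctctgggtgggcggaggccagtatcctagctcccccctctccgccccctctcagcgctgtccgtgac

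The promoter of Rnf123 holds 1 GTAAACA, which begins 144 bases before the start, and the other promoters shown hold neither motif in these windows. Over the 300-base windows of the table (250 before to 50 after the start), GTAAACA on either strand was found in 3.65% of 32851 promoters and CAAAACA in 6.28%. Of the 33 called genes, 32 matched the table, and 2 of these held GTAAACA (Rnf123 and Vps26b), or 6.25% against 4.05% of all 27025 genes. CAAAACA was in 0 of the 32, against 7.20% of all genes. These matches describe letters in a window and not binding.

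Probes of the same gene are read on the same arrays and so share the array background. Of the 33 called genes, 18 had at least 1 other tested probe, 34 in all. The other probes were closer to 0 in each of these genes. Of the 34, 25 had the sign of the called probe, 9 of them at an unadjusted p under 0.05, and 0 had the opposite sign at that level. Of all tested probes, 10.5% had an unadjusted p under 0.05, 6.44% lower and 4.09% higher in Tg. By the brightest probe, 5517 of all 12173 genes lay below 0 and 6656 above. The 9 other probes at that level belong to 8 genes and were read on the same arrays as the called probes. The difference of the other probes had a median size of 0.17 on the log2 scale, and 24 of them lay within 0.25 of 0. The called probe was the brightest of its gene in 5 of the 18 genes.

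Among called genes with 2 tested probes, Adh1 and Ddx3x had the smallest gaps between the 2. The second Ddx3x probe (ILMN_2519780) had 6.67, 6.73 and 6.49 in Tg Foxo3-/- ovaries and 7.41, 7.08 and 7.73 in NoTg Foxo3-/- ovaries. It did not overlap between the groups and differed by -0.78 ± 0.21 (SE, n = 3 each, limma adjusted p = 0.128). The second Trim59 probe differed by -0.43 and the 2 further Myo5b probes by -0.38 and, on the brightest, 0.04, none of them called. The other probe of Eif3c was at -0.19, of Tanc1 at 0.05, of Isca1 at -0.04 and of Abhd17c at -0.09, and the others of Pbrm1 and Lrrc59 spanned -0.60 to -0.14 and -0.29 to 0.11. In Zbtb18 the 3 further probes lay on both sides of 0, from -0.22 to 0.31.

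A direct test of each probe against the other probes of its gene (diffSplice in limma, 11705 probes of 4736 genes) called 3 probes (0.0256%), and 7.48% had an unadjusted p under 0.05. In Ppp6r3 the called probe (ILMN_1235583) had 5.72, 5.53 and 5.43 in Tg Foxo3-/- ovaries and 6.69, 6.52 and 6.54 in NoTg Foxo3-/- ovaries. The much brighter probe ILMN_2698353 had 10.79, 10.63 and 10.68 in Tg Foxo3-/- ovaries and 10.87, 10.90 and 10.56 in NoTg Foxo3-/- ovaries, which overlap. The called probe lay 0.99 below the others (diffSplice value -0.99, adjusted p = 0.00668). In Anxa4 one probe fell by 0.81 while the brightest differed by 0.02, a gap of -0.85 (adjusted p = 0.0193). Abcd3, a peroxisomal fatty acid transporter, had one probe at -0.81 (limma adjusted p = 0.0533) and 3 others from -0.03 to 0.13, a gap of -0.86 (adjusted p = 0.0184). The transcript or exon that each probe reads is not stated in the sources used.

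**Figure D3:**
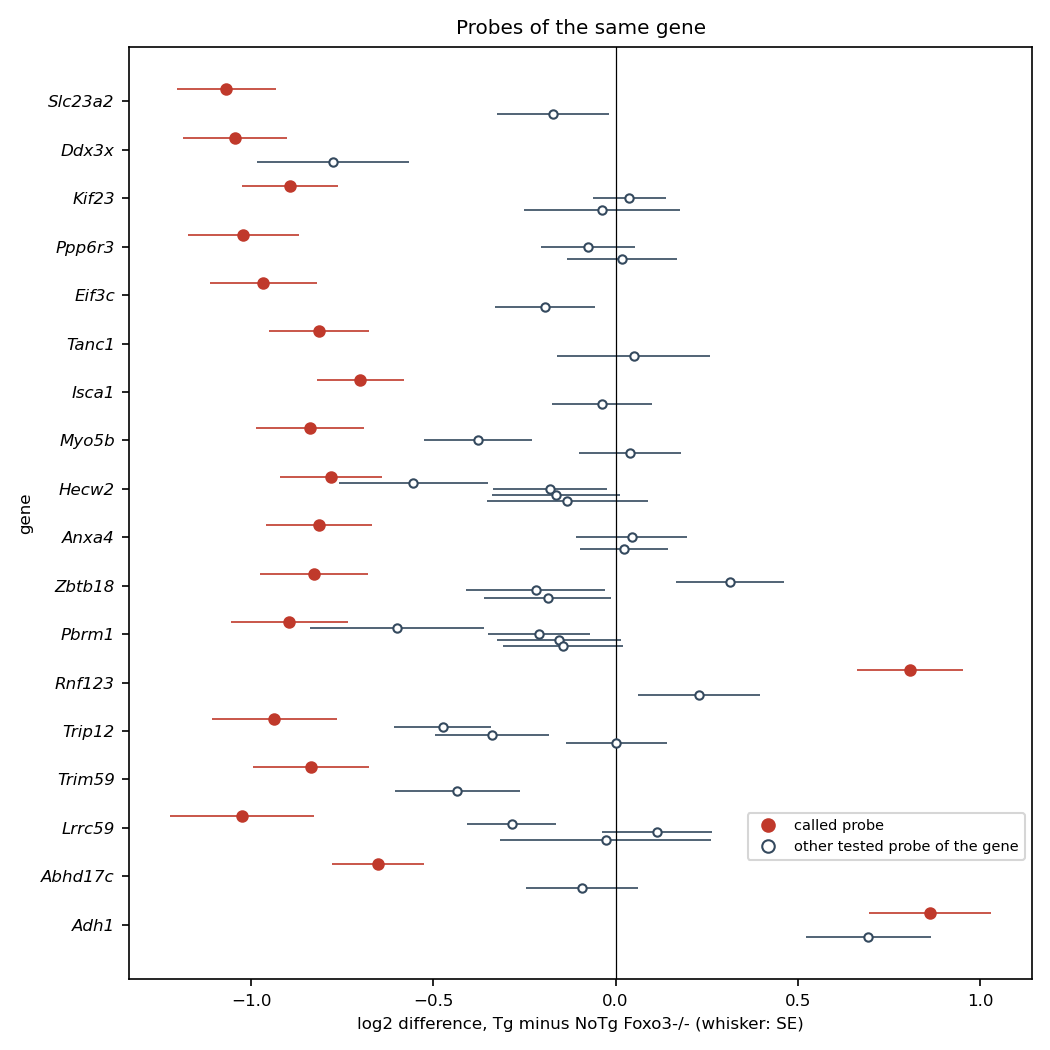
Log2 difference, Tg minus NoTg Foxo3-/- (x axis, whiskers SE), of every tested probe of the 18 called genes with 2 or more tested probes (y axis). The called probe (filled) is the farthest from 0 in each gene, and 24 of the 34 other probes (open) lie within 0.25 of 0.

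As a description across genes, which are not independent replicates and share the same 6 arrays, the differences of the brightest and next brightest probe of 4736 genes correlated with r = 0.287 for the transgene in Foxo3-/- ovaries and r = 0.237 for the transgene in Foxo3+/- ovaries. Between Foxo3-/- and Foxo3+/- ovaries the same measure was 0.505 with the transgene and 0.472 without it.

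The group means of the transgene comparison in Foxo3+/- ovaries come from the other 6 arrays, but both comparisons share the spread estimated over all 12. All 41 probes that fell in Tg Foxo3-/- ovaries were also below 0 in Tg against NoTg Foxo3+/- ovaries, where 45.1% of all tested probes were. In Foxo3+/- ovaries limma called 82 probes (0.364%), and 20 of the 41 were among the 81 called lower there (0.36%), 48.8% of the first list and 24.7% of the second. The 82 calls moved with the settings. They became 13, 13 and 7 without Tg Foxo3-/- replicate 1, 2 or 3, 66, 127 and 68 without NoTg Foxo3-/- replicate 1, 2 or 3, 11, 0 and 1 without Tg Foxo3+/- replicate 1, 2 or 3, and 70, 0 and 0 without NoTg Foxo3+/- replicate 1, 2 or 3. They became 21 with the replicate number as a block and 0 with the compared groups only or with the authors' values, and the overlap was counted only in the fit that gave 82. The Tg and NoTg arrays of Foxo3+/- ovaries also differed in background, at 65.8, 67.0 and 65.4 in Tg and 79.8, 78.3 and 76.3 in NoTg. Slc18a2 had 9.69, 8.88 and 9.69 in Tg Foxo3+/- ovaries and 10.05, 10.35 and 10.69 in NoTg Foxo3+/- ovaries, and fell by 0.95 (adjusted p = 0.0402). Of the 43 called probes, 39 had a smaller difference in Foxo3+/- than in Foxo3-/- ovaries. The probes were chosen for passing in the null, so this count is a description.

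Neither gene that rose was called in Foxo3+/- ovaries. Rnf123 differed by 0.10 ± 0.15 and Adh1 by 0.41 ± 0.17 there (SE, n = 3 each, limma adjusted p = 0.881 and 0.409). The Aldh1a2 probes differed by 0.11 and 0.05. The test of the difference between the genotypes called 0 of 22511 probes, with 4.23% at an unadjusted p under 0.05, and the interaction estimates of Rnf123 (0.71) and Adh1 (0.46) had an adjusted p of 0.994, so an effect limited to the null genotype was not shown. Among the arrays, Adh1 was lowest in the 3 NoTg Foxo3-/- samples, at 8.28 to 8.40, against 9.12, 9.73 and 9.30 in Tg Foxo3+/- and 9.18, 9.09 and 8.67 in NoTg Foxo3+/- ovaries. Aldh1a2 (ILMN_2630753) likewise was 5.24 to 5.74 in NoTg Foxo3-/- samples, against 6.15 to 6.47 over the Foxo3+/- arrays. NoTg Foxo3-/- against NoTg Foxo3+/-, which shares the NoTg Foxo3-/- arrays with the transgene comparison, gave -0.66 for Adh1 (adjusted p = 0.0731), -0.53 for Rnf123 (0.0944) and -0.76 for Aldh1a2 (0.0356). Of the genes that fell, Myo5b was 0.65 higher in NoTg Foxo3-/- than in NoTg Foxo3+/- ovaries (adjusted p = 0.0493).

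**Figure D4:**
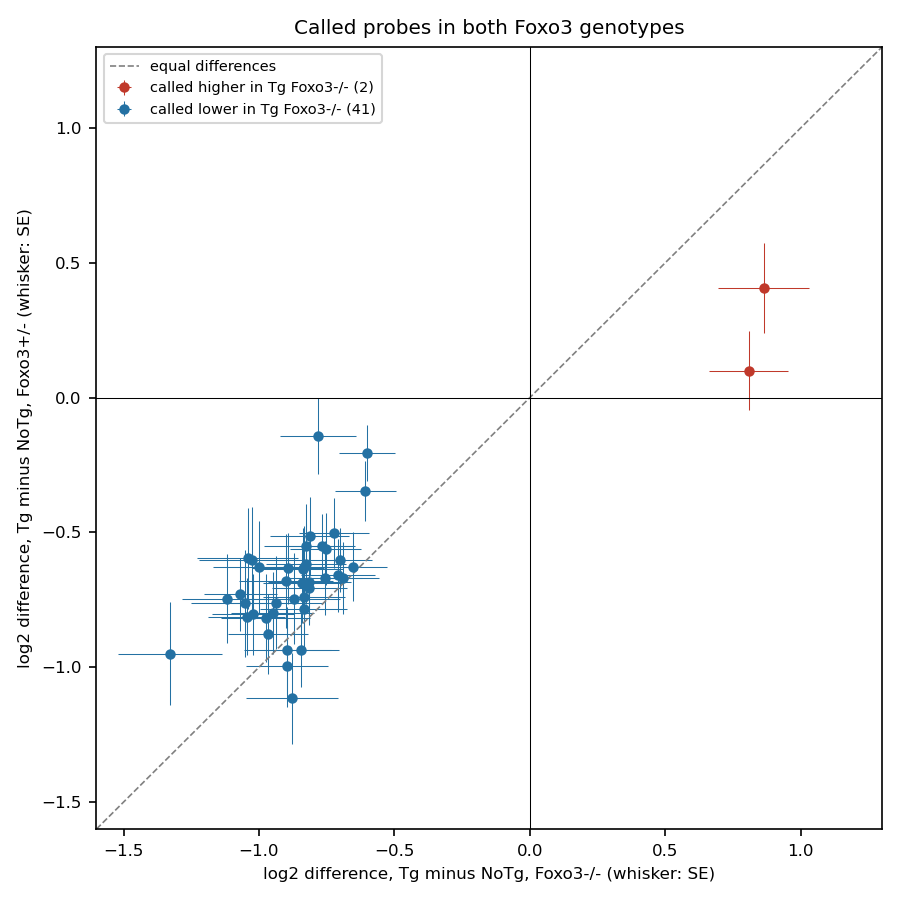
Log2 difference, Tg minus NoTg, of the 43 called probes in Foxo3-/- ovaries (x axis) and in Foxo3+/- ovaries (y axis), with SE whiskers and a dashed line of equal differences. All 41 probes called lower lie below 0 on both axes, and the 2 called higher lie near 0.10 and 0.41 on the y axis.

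The 34 gene lists were chosen with earlier results of these data known, so the number of lists with a call is not a result. Over all named genes, 31 probes were called lower and 2 higher among 19142 tested. No list had more than 1 called probe. Direct targets of FOXO factors had 0 of 32 genes called, 18 above 0 and 14 below, and a median of 0.02. Only 0.191% of all tested probes were called, so 0 calls in a list of such size, here or elsewhere, is not a result about its members. Of the 55 FOXO target probes, 9 (16.4%) had an unadjusted p under 0.05, beside 10.6% of the probes of all named genes. The smallest p in the list was that of 1 probe of Cited2, a transcriptional coregulator. Cited2 ILMN_2683980 had 7.79, 7.67 and 7.56 in Tg Foxo3-/- ovaries and 6.81, 6.87 and 7.20 in NoTg Foxo3-/- ovaries (0.72 ± 0.16, SE, n = 3 each, limma adjusted p = 0.0665). A second probe was at 0.61 (adjusted p = 0.0901), while the brightest Cited2 probe overlapped between the groups and was at 0.14 (adjusted p = 0.895). Trib1, a pseudokinase, was at 0.62 (adjusted p = 0.0866), and Tgfbr1, a receptor of TGF-beta, had one probe at -0.84 (adjusted p = 0.0763) and its brightest at -0.05.

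Genes of the oocyte, where the title places the transgene, had 0 called members in the lists of zona pellucida and secreted factors (12 genes tested), maternal effect (31), transcription and RNA binding (16), piRNA (14) and meiosis (11). The share called was 0.191% over all tested probes. Gdf9 averaged 14.6 in Tg and 14.7 in NoTg Foxo3-/- ovaries and Zp3 averaged 13.9 in Tg and 13.8 in NoTg. In the maternal effect list 13 of 41 probes had an unadjusted p under 0.05, or 31.7%, beside 10.6% of the probes of all named genes, with a median difference of -0.07. Gtsf1, a piRNA pathway factor, had 8.14, 7.93 and 7.86 in Tg Foxo3-/- ovaries and 8.80, 8.70 and 8.65 in NoTg Foxo3-/- ovaries (-0.74 ± 0.15, SE, n = 3 each, limma adjusted p = 0.0512). It was called lower in Tg Foxo3+/- ovaries, at -1.12 (adjusted p = 0.0112). The list's mean level was 10.68 to 10.74 in Tg and 10.71 to 10.88 in NoTg Foxo3-/- ovaries, which overlap.

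Of the 38 defining markers of 11 cell types, 34 were tested and 0 were called, with differences of -0.31 to 1.08. The share called was 0.191% over all tested probes. Some oocyte, granulosa, stroma and smooth muscle markers, such as Gdf9, Inha, Dcn and Acta2, were bright in both groups. Other members were dimmer. The oocyte marker Zp2 averaged 4.66 in Tg and 4.91 in NoTg Foxo3-/- ovaries. The granulosa marker Foxl2 averaged 5.60 in Tg and 5.62 in NoTg, and the smooth muscle marker Des 6.84 and 6.62. The adipose markers Adipoq and Fabp4 were detected on none of the 6 arrays. The largest marker value was the steroid synthesis enzyme gene Cyp11a1, with 7.71, 8.52 and 8.18 in Tg Foxo3-/- ovaries and 7.01, 6.76 and 7.41 in NoTg Foxo3-/- ovaries (1.08 ± 0.26, SE, n = 3 each, limma adjusted p = 0.0905). Its 2 other probes, both dim, differed by -0.11 and 0.05. The other theca markers, Cyp17a1 and Star, were at 0.21 and -0.27. The tested erythrocyte markers Hba-a1 and Alas2 were at 0.64 and 0.55 (limma adjusted p = 0.307 and 0.558). The wider erythrocyte list had 4 genes above 0 and 2 below. The granulosa product Amh was at 0.57 (adjusted p = 0.216). Slc18a2 stands in the granulosa list as well, and the other defining granulosa genes lay between -0.14 and 0.07.

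The list median farthest below 0 was that of immediate early genes, at -0.32 with 2 of 11 genes above 0. Chaperones, at -0.13 with 6 of 24 above 0, and macrophage genes, at -0.13 with 3 of 14, came next. Of all 12173 genes, 6656 lay above 0. No member of these lists was called. Egr3 had one probe at -0.92 (adjusted p = 0.1) and another at 0.25 (adjusted p = 0.668), and Ptges3, an HSP90 co-chaperone, was at -0.68 (adjusted p = 0.0512). Both HSP90 alpha probes (Hsp90aa1) were below 0, at -0.54 and -0.74 (adjusted p = 0.129 and 0.275). With median scaling the median of all tested probes moved to -0.10 and in the authors' values to -0.10, against 0.02 here, so small list medians are to be read against those shifts.

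**Figure D5:**
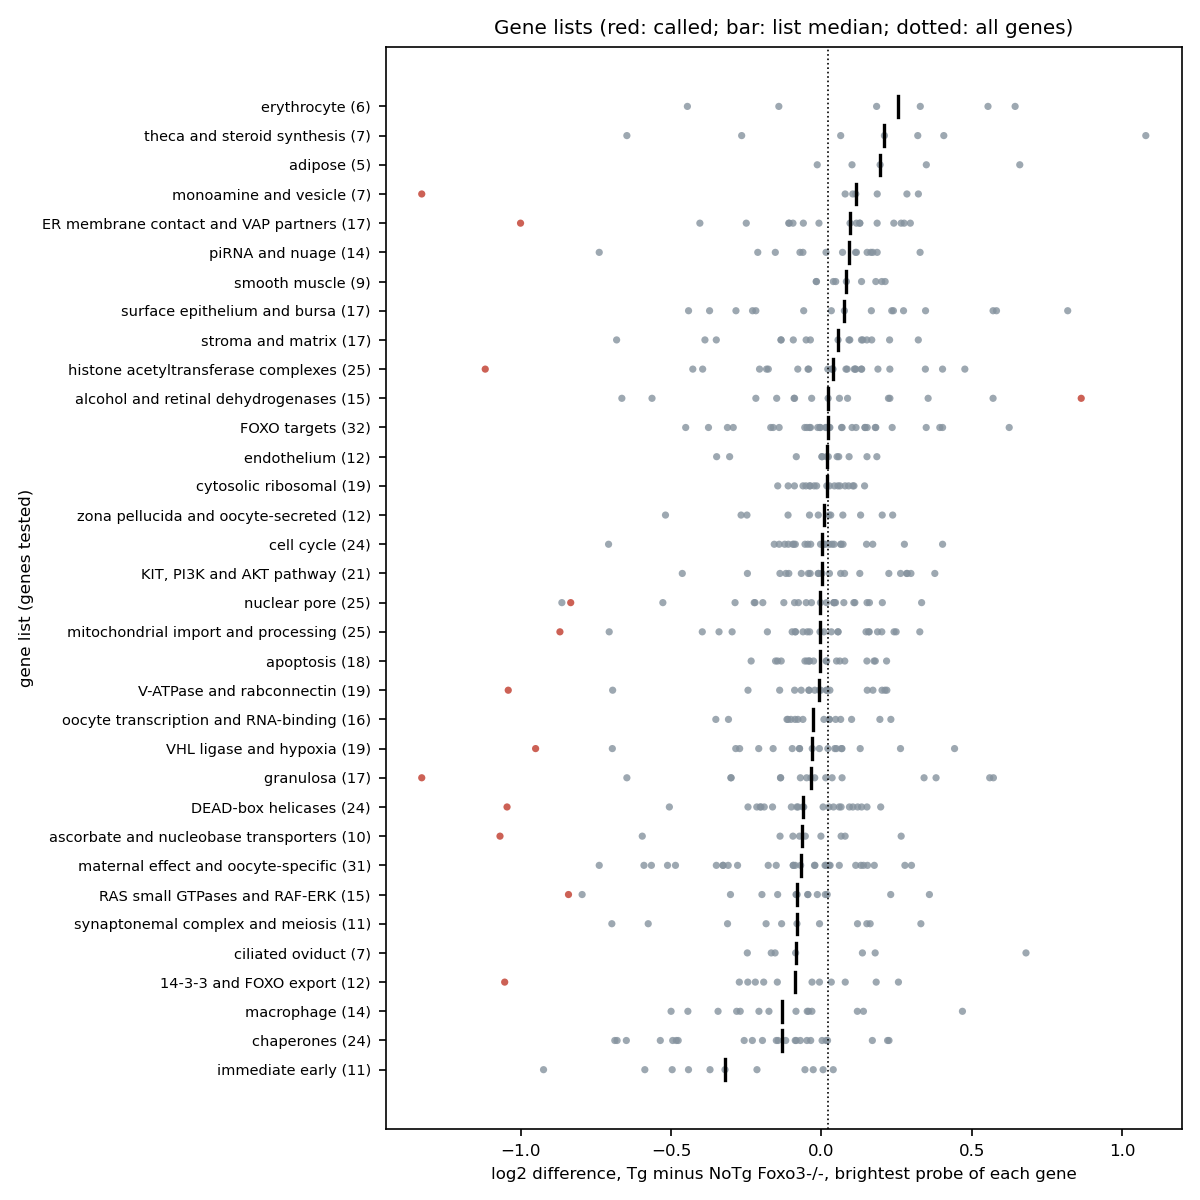
Log2 difference, Tg minus NoTg Foxo3-/-, of the brightest probe of each tested gene in the 34 gene lists (y axis, number of genes tested in brackets; red points are called, black bars are list medians, and the dotted line is the median of all genes). No list holds more than 1 red point, and the medians run from -0.32 (immediate early) to 0.26 (erythrocyte).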

How the data were processed

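Total RNA of 12 ovary samples was amplified to biotin-labelled cRNA, per the labels' protocols. The deposited table holds raw intensity, 1 value per probe and array, not background-subtracted, and per the file headers a detection p-value for each. A second table of the authors' normalized intensity, made by a method the sources do not state, served as an alternative after log2.

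Raw intensity was background-corrected by the normal-exponential model from the detection p-values (offset 16), quantile normalized and put on a log2 scale with limma 3.58.1 in R 4.3.3. Of 45281 probes, 22511 with a detection p under 0.05 on at least 3 arrays were tested. Of all probes, 34885 have 1 gene symbol, 18 several and 10378 none here. The linear model (lmFit, eBayes with trend) held all 12 arrays and 4 group means, with 1 contrast per comparison. Each probe was set against the other probes of its gene by diffSplice. Named genes are all called probes with 1 symbol and their other probes, the probes called by diffSplice, up to 4 members of each list, the 5 smallest interaction p-values, the defining markers and Foxo3. Noct and the genes in the closing section were named after their values were seen, and the sorting of called genes by role was also made then. The members, lists and alternatives were chosen with earlier results of these data known.

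On simulated log2 values with 200 changed probes, the fit recovered 82% of changes of 1 and 30% of changes of 0.6 among 22511 probes. The simulated noise was independent between probes and held no background difference between arrays. These rates therefore do not measure recovery where the background differs by transgene state, as it did here. Bright signal (the 90th percentile) exceeded array background 8.94- to 14.9-fold, and precision is limited by the 3 arrays per group. Whether the samples came from separate animals is not in the labels, and p-values then measure only the spread among samples, part of which may be technical. Chips and hybridisation days are not named either, so none entered the model. Alternatives covered background correction, scaling, filters, the fit, probe choice and leaving out each array.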

Additional observations from a re-analysis of the deposited data

Results flagged for a closer look

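In 5 named probes the Tg and NoTg arrays did not overlap in either genotype and moved in opposite directions, as did 89 of all 22511 tested probes (0.395%). Some probes were named for the 5 smallest interaction p-values, which favours such patterns, so the number of named probes here is not a result. None of these differences between genotypes passed limma's interaction test (adjusted p = 0.994 for each). The transgene difference in Foxo3-/- ovaries minus that in Foxo3+/- ovaries was -0.74 on the log2 scale for one probe of Apaf1 (ILMN_1228561), the scaffold of the apoptosome, made of -0.46 in Foxo3-/- and 0.29 in Foxo3+/- ovaries. Its other probes, ILMN_3143577 and ILMN_2466335, had interaction estimates of -0.22 and -0.10. For Tomm6, a subunit of the mitochondrial import pore, it was 0.53 (ILMN_1236123) and 0.64 (ILMN_1218725), so that 2 probes of the gene showed the same pattern. For Slc7a3, a transporter of cationic amino acids, it was -0.92, and for the deubiquitinase gene Josd2 it was 0.72.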

How the results depend on the processing

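The 43 calls became 26 with plain background subtraction, 0 with median scaling, 366 with the authors' values (all lower), 22 with no filter, 80 with the stricter filter, 512 with array weights, 0 with array background as a covariate and 13 with 1 probe per gene, and spanned 0 to 193 over single arrays left out. With that covariate the 31 named falls were -1.65 to -0.23 and the 2 rises 0.58 and 1.12. The 82 calls in Foxo3+/- ovaries became 40 with subtraction, 0 with median scaling, 0 with the authors' values, 24 with no filter, 21 with the replicate block, 0 with the compared groups only, 925 with array weights, 0 with the covariate and 37 with 1 probe per gene (0 to 127 over arrays left out). The 3 calls between probes of a gene became 11 with no background correction, 6 with subtraction, 0 with median scaling, 83 with no filter, 8 with bright probes only, 5 with the compared groups only, 175 with array weights and 0 with the covariate (0 to 62). The cause was not tested. The interaction stayed at 0 calls in each alternative that gave it, and the background difference was -9.6 and -9.93 by other measures. Each named call was kept in 8 to 20 of up to 25 alternatives, and 59 of 313 named values not called were called in at least 1. Correlations of deviations between Tg and NoTg samples of the same replicate number were 0.16, -0.02 and -0.15 in Foxo3-/- ovaries. In Foxo3+/- ovaries they were 0.09, -0.08 and 0.26. Their signs were mixed, and the main fit did not pair the samples. With the replicate block 36 probes were called in Foxo3-/- ovaries.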

Other observations

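Genes whose tested probes all pointed one way were looked for after the data were seen. Of 4736 genes with 2 or more tested probes, 52 (1.1%) had every probe at an unadjusted p under 0.05 with 1 sign, 26 higher and 26 lower in Tg Foxo3-/- ovaries. Besides Aldh1a2, Adh1 and Ddx3x, the smallest p for the gene mean belonged to Noct, with 8.05, 7.80 and 7.53 in Tg Foxo3-/- ovaries and 8.73, 8.44 and 8.52 in NoTg Foxo3-/- ovaries on its brighter probe (ILMN_1255422). Its other probe had a difference of -0.91. The chromatin protein gene Dek followed, with a gene mean of -0.58 ± 0.12 (SE, limma adjusted p = 0.0591), and then Vps33b, a vesicle fusion factor, at 0.68 ± 0.15 (adjusted p = 0.0731).

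A further 3 of the 52 genes are given as values, picked after they were seen and not called by the gene mean. Wnt4, a signal of female gonad development, had 9.14, 9.76 and 8.90 in Tg Foxo3-/- ovaries and 10.01, 10.02 and 9.78 in NoTg Foxo3-/- ovaries on its brighter probe (gene mean -0.71 ± 0.21, SE, limma adjusted p = 0.193). Sox9, a transcription factor of the testis pathway, had a gene mean of -0.55 ± 0.15 (adjusted p = 0.184), with its brighter probe at 8.30 to 8.62 in Tg and 8.94 to 9.18 in NoTg Foxo3-/- ovaries. Hsd11b2, which inactivates glucocorticoids, had 8.22, 9.08 and 8.62 in Tg Foxo3-/- ovaries and 7.64, 7.86 and 7.82 in NoTg Foxo3-/- ovaries on ILMN_1229516, and a gene mean of 0.88 ± 0.24 (adjusted p = 0.184). Its 2 probes differed by 0.87 and 0.88.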
